A study of Mus musculus with 6 samples.

Results

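The genes examined here encode the machinery that carries secretory granules to the apical membrane of a Paneth cell and fuses them with it. The genes had been listed by name: the Rab GTPase genes Rab3d, Rab26, Rab27a and Rab27b, the SNARE genes Vamp8, Snap23 and Stx3, the syntaxin-binding gene Stxbp2, and the synaptotagmin-like genes Sytl2 and Sytl4. All 10 were found among the 55414 identifiers of the count table, and 9 of them passed the low-count filter that left 9749 genes for testing. The libraries came from Paneth cells that had been isolated by FACS from small intestine of WT mice, which the study's methods describe as C57BL/6J animals sequenced individually. The group St_TNF (3 libraries) received standard chow and the group ZincDef_TNF (3 libraries) received zinc depleted chow, in both cases for 7 weeks, and all mice were given TNF 3 hours before sampling. The series' own design text speaks of 4 mice per group, and no library without TNF was used, so the response to TNF was not measured. Age was not given in the sources used here, and the study describes its datasets as holding both sexes without giving that of these animals.

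Paneth cells store antimicrobial peptides in large granules and release them by regulated exocytosis. In this process, Rab GTPases in their GTP-bound form mark the granule, and effectors of the synaptotagmin-like family bind Rab27 and tether the granule to the plasma membrane. A SNARE protein of the granule (a VAMP) then pairs with a syntaxin and a SNAP25-type protein of the target membrane, assisted by a Munc18 protein, and the membranes fuse. The same families serve synapses, exocrine glands, mast cells and cytotoxic lymphocytes with different paralogs, so the first question was which paralog of each family was counted in these cells.

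The paralogs are close in sequence, and the stretches shown here let a reader see how far a read can tell them apart. Each is 75 bases of coding sequence from the GENCODE canonical transcript, read 5′ to 3′ on the strand of the gene, and the capitals mark the 21 bases that encode the conserved nucleotide-binding motif of the switch II region of Rab proteins. Each stretch spans an exon junction in GRCm39: Rab3d on chromosome 9 (minus strand, exons 2 and 3 of 5), Rab26 on chromosome 17 (minus strand, exons 3 and 4 of 9) and Rab27a on chromosome 9 (plus strand, exons 3 and 4 of 6), with the neuronal paralog Rab3a on chromosome 8 (plus strand, exons 2 and 3 of 5) for comparison.
Rab3d: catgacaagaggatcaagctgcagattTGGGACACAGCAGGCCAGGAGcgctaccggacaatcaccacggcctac
Rab3a: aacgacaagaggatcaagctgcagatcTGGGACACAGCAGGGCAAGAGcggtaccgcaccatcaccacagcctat
Rab26: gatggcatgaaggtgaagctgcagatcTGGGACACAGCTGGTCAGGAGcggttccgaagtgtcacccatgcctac
Rab27a: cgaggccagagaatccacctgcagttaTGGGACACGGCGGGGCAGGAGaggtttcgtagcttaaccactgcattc

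Rab3d shared 65 of these 75 bases with Rab3a, 57 with Rab26 and 51 with Rab27a, and 18 or 19 of the 21 bases in capitals were the same in every pair. Even so, each 75-base window overlapping the stretches was specific to its gene among all GENCODE transcripts. Over whole canonical transcripts the specific share of 75-base windows was 97.6% for Rab3d, 99.6% for Rab27a, 98.9% for Stxbp2, 90.2% for Vamp8 and 100% for Rab26, Rab27b, Sytl2 and Sytl4. It was lower for Snap23, at 56.0%, and for Stx3, at 48.8%. Windows were matched on both strands, so exons of genes that overlap on the opposite strand count against this share. Windows shared with such neighbours were not separated from windows that also match elsewhere. Counts of these 2 genes may thus depend on how strand and overlapping genes were treated. Exons of Lrrc57 on the opposite strand cover 2179 bases, 30% of the exon bases of Snap23. Exons of Mrpl16 on the opposite strand cover 1376 bases, 10.2% of those of Stx3. Exons of Traf7 on the same strand cover 17.8% of those of Rab26. These percentages are of all annotated exons, which for Stx3 hold 13515 bases. The canonical transcript of Stx3, used for its level and share, has 2612 bases, and the overlap within it was not measured separately. The use of strand in counting was not given in the sources used here.

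The libraries differed in ways that touch every value given here. They held 6139397 to 12772373 counts, and the alpha-defensins took 45.5% to 55.3% of the counts on standard chow and 46.6% to 60.5% with zinc depletion. The TMM factors, which rescale each library by the bulk of its genes, were 1.73, 1.51 and 0.90 for standard diet replicates 1, 2 and 3 and 1.46, 0.64 and 0.46 for zinc depleted replicates 1, 2 and 3. The factors were lowest in the 3 libraries with the highest alpha-defensin share, whose part in them was not tested. The diet comparison was also run with TMM factors computed without the alpha-defensins. The median log2 fold change was then 0.00 over all tested genes and 0.41 over the tested members, the same as with them. The diet comparison was read both on CPM, a count scaled to the total of its library, and on TMM-scaled CPM: over all tested genes, TMM gave a median log2 fold change of 0.00 and total counts gave -0.67. All 7 Paneth cell markers were counted, at a sum of 502054 to 624280 CPM. Of the other marker lists, the stem, proliferation and enteroendocrine sums were higher on CPM in every standard diet library than in any zinc depleted one (1250 to 3861 against 524 to 727 CPM, 71.2 to 180 against 35.3 to 61.3 CPM, and 31.2 to 132 against 13.9 to 29.2 CPM), but all 3 overlapped on the TMM scale. The goblet sum overlapped on CPM and was higher without overlap in the zinc depleted libraries on the TMM scale, while tuft, enterocyte, immune and mast cell sums overlapped on both. The FACS sort was made to leave out these other cell types. In a bulk library, fewer cells of a type and less RNA per cell cannot be told apart.

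Vamp8 and Rab3d were the most abundant of the 10 genes once counts were divided by transcript length. The place of Vamp8 rests on its canonical transcript of 820 bases. Over all 6 libraries it had 2052 counts, against 6606 for Rab3d and 2276 for Sytl2. Vamp8, a granule SNARE of exocrine and blood cells, had a mean of 48.2 ± 9.55 CPM per kilobase (SD, n = 6), which ranked 329 among the 13966 protein-coding genes with any count. Rab3d, the Rab3 of zymogen-type granules, followed at 34.0 ± 20.4 CPM per kilobase (SD, n = 6), rank 454. Next came Stxbp2, Rab27a, Stx3, Snap23 and Sytl2, with means between 8.29 and 5.67, then Rab27b at 2.36, Sytl4 at 0.487 and Rab26 at 0.181 CPM per kilobase. Among neighbours in this order, the steps from Rab3d to Stxbp2 and from Rab27b to Sytl4 held in 6 of 6 libraries and exceeded the SD of the within-library log2 differences (1.91 ± 0.36 and 2.53 ± 1.27, SD, n = 6). The step from Sytl2 to Rab27b held in 5 of 6 libraries (1.16 ± 0.93). The others, including that from Vamp8 to Rab3d (0.78 ± 0.84) and all those from Stxbp2 down to Sytl2, lay within their SD.

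**Figure D1:**
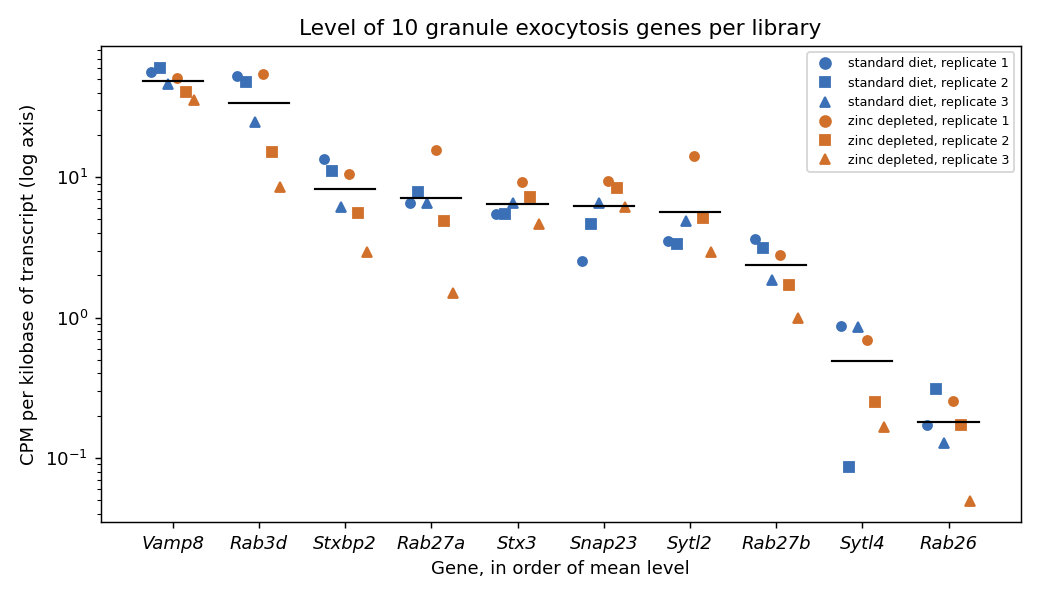
Level of each of the 10 genes in CPM per kilobase of canonical transcript (log axis), with 1 point per library and a black line at the mean of 6 libraries. Vamp8 and Rab3d stand at the top with means of 48.2 and 34.0, Rab26 at the bottom with 0.181, and the 5 genes from Stxbp2 to Sytl2 overlap.

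The Rab genes were represented very unevenly. Rab3d (ENSMUSG00000019066, chromosome 9, 21818510 to 21829622, minus strand) was counted at 206, 187 and 96.5 CPM in standard diet replicates 1, 2 and 3 and at 213, 59.2 and 32.9 CPM in zinc depleted replicates 1, 2 and 3. It was thus high in the first standard diet pair and in zinc depleted replicate 1 and low in the last zinc depleted pair, with overlapping groups. Within the Rab3 family it took 96.8% ± 1.37 (SD, n = 6) of the counts per length. Rab3a, the synaptic paralog, had 3 to 26 counts in a library, and its level per length was 32.4-fold below that of Rab3d (mean log2 difference 5.02 ± 0.72, higher in 6 of 6 libraries). Rab3b and Rab3c, which are also known from neurons and endocrine cells, had 3 counts and 1 count over all 6 libraries.

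Rab27a and Rab27b, the Rabs that recruit synaptotagmin-like tethers, were both present. Rab27a (ENSMUSG00000032202, chromosome 9, 72952124 to 73004911, plus strand) was at 19.6, 23.5 and 19.5 CPM on standard chow and at 46.5, 14.5 and 4.46 CPM with zinc depletion. Rab27b (ENSMUSG00000024511, chromosome 18, 70112202 to 70274903, minus strand) was at 26.3, 22.5 and 13.2 CPM on standard chow and at 20.2, 12.4 and 7.12 CPM with zinc depletion. Per length, Rab27a exceeded Rab27b in 6 of 6 libraries by 2.69-fold (mean log2 difference 1.43 ± 0.68), because the canonical transcript of Rab27b is 7196 bases long and that of Rab27a 2994. On raw counts the difference was 0.16 on the log2 scale and did not pass (exact permutation test, adjusted p = 0.636), so the order of this pair rests on the transcript length. Rab26 (ENSMUSG00000079657, chromosome 17, 24746215 to 24753184, minus strand), a Rab known from acinar cells of salivary gland and pancreas, had 2, 3 and 2 counts on standard chow and 4, 2 and 1 counts with zinc depletion. That is at or near the limit of 3 counts that a count of 0 allows, and Rab26 was the member that failed the filter. Its relative Rab37, known from mast cell granules, had 0 to 11 counts, and the order of this pair was not detectable at this depth (log2 difference 0.32 ± 1.38).

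Of the synaptotagmin-like tethers, Sytl2 had the highest mean share. Sytl2 (ENSMUSG00000030616, chromosome 7, 89951453 to 90059927, plus strand), which binds Rab27 on granules of epithelial and blood cells, was at 25.8, 24.4 and 35.5 CPM on standard chow and at 103, 37.4 and 21.5 CPM with zinc depletion. A single library, zinc depleted replicate 1, stood above all others. Sytl4 (ENSMUSG00000031255, chromosome X, 132837134 to 132882561, minus strand), the granuphilin of pancreatic beta cells, had 24, 2 and 32 counts and 26, 7 and 8 counts in the same order, and lay 12.8-fold below Sytl2 per length (log2 difference 3.68 ± 1.16, 6 of 6 libraries). Sytl1 held 37.6% ± 15.9 of the family's counts per length against 52.4% ± 17.0 for Sytl2 (SD, n = 6), and the pair did not differ beyond its spread (log2 difference 0.50 ± 1.10, Sytl2 higher in 4 of 6 libraries). On raw counts Sytl2 exceeded Sytl1 by 2.38 on the log2 scale and passed (exact permutation test, adjusted p = 0.0426), so this order too rests on the transcript length.

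Vamp8, Snap23 and Stx3 had the highest mean share of their SNARE families, and of these the share of Vamp8 varied least between libraries. Vamp8 (ENSMUSG00000050732, chromosome 6, 72359012 to 72368482, minus strand) was at 46.3, 49.5 and 38.0 CPM on standard chow and at 41.4, 33.1 and 28.9 CPM with zinc depletion, with the groups overlapping. It took 64.1% to 73.5% of the counts per length of the 6 Vamp genes in the table and exceeded Vamp3, a SNARE of recycling vesicles, by 4.29-fold (log2 difference 2.10 ± 0.19) and Vamp2, the synaptic SNARE, by 7.35-fold (2.88 ± 0.67). On raw counts the log2 difference from Vamp3 was 0.88, since the canonical transcript of Vamp8 has 820 bases and that of Vamp3 has 1908. Vamp7 was not analysed here.

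Snap23 (ENSMUSG00000027287, chromosome 2, 120397782 to 120433531, plus strand), the SNAP25-type protein of non-neuronal cells, was at 12.1, 22.0 and 31.3 CPM on standard chow and at 44.3, 39.8 and 29.0 CPM with zinc depletion. Its neuronal paralog Snap25 had 1 count in all. Snap29 and Snap47, which act mostly at internal membranes, were in the same range as Snap23: the share of Snap23 in standard diet replicates 1, 2 and 3 was 18.8%, 30.3% and 61.8%, and in the zinc depleted replicates it was 59.4%, 78.5% and 69.0%. Standard diet replicates 1 and 2 were thus low and the other 4 libraries high. Stx3 (ENSMUSG00000041488, chromosome 19, 11752463 to 11796767, minus strand), the apical syntaxin of epithelial cells, was at 14.3, 14.3 and 17.0 CPM on standard chow and at 24.1, 19.0 and 12.1 CPM with zinc depletion. Its share of the 7 plasma membrane syntaxins was 40.0%, 48.5% and 73.1% against 71.1%, 74.3% and 83.0%. Stx4a, the basolateral syntaxin, held most of the rest, with 12 to 88 counts, and Stx2 had 9 counts over all libraries.

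Stxbp2 (ENSMUSG00000004626, chromosome 8, 3680932 to 3694003, plus strand) encodes Munc18-2, the partner of Stx3 in epithelial and blood cells. It was at 39.1, 32.1 and 17.7 CPM on standard chow and at 30.8, 16.3 and 8.53 CPM with zinc depletion. Like Rab3d and Rab27b, it was low in standard diet replicate 3 and in zinc depleted replicates 2 and 3, the libraries with TMM factors under 1. Stxbp2 took 69.5% ± 7.25 of the Munc18 counts per length (SD, n = 6). It exceeded Stxbp3 by 2.92-fold (log2 difference 1.54 ± 0.50) in 6 of 6 libraries.

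**Figure D2:**
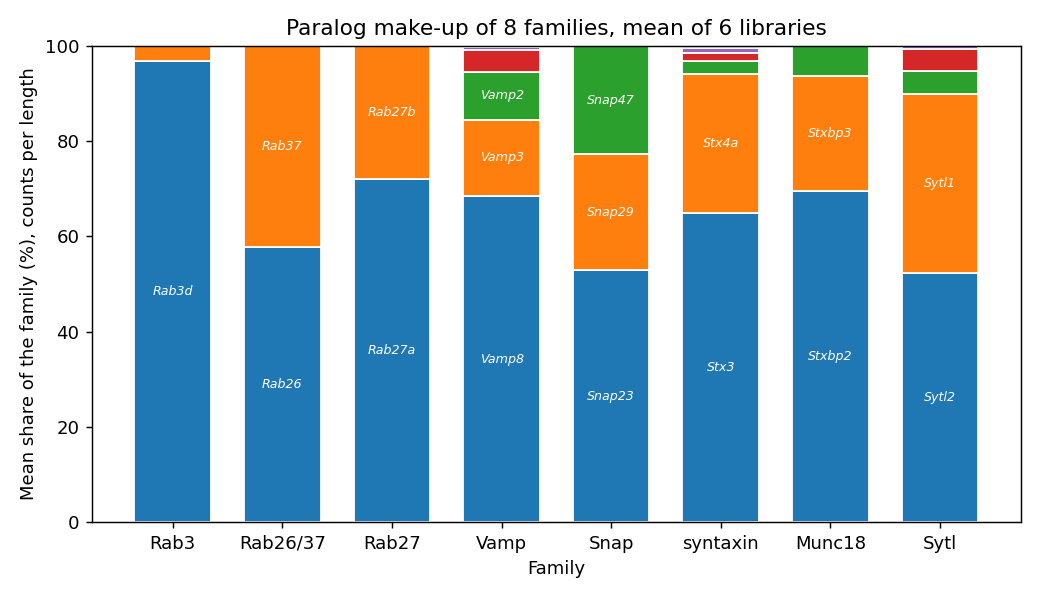
Mean share (%) of each paralog in its family over 6 libraries, from counts divided by canonical transcript length, with the smallest segments left unlabelled. Rab3d took 96.8% of the Rab3 family, whereas Snap23 took 53.0% and Sytl2 52.4% of theirs.

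Of the 15 member and paralog pairs compared in this way, 10 passed, all with the listed gene higher, among them Rab27a over Rab27b, Rab3d over Rab3a and Rab3b, Vamp8 over Vamp2 and Vamp3, Snap23 over Snap25, Stx3 over Stx2, Stxbp2 over Stxbp3, and Sytl2 over Sytl4. Each had p = 0.031, the smallest that the two-sided exact sign-flip permutation test over 6 libraries can give, and an adjusted p of 0.0469. The adjustment was made over the 15 pairs compared, of 16 listed. The 10 calls lay just under the threshold and depend on that number of pairs and on how many reached the smallest p. Of the paralogs, Rab3b, Snap25 and Stx2 had 3, 1 and 9 counts over all 6 libraries. The outcome of their pairs was nearly fixed in advance, and the adjusted p of all 10 rests in part on them. The members and tests were chosen with earlier results known, so the shared direction is not independent support. Snap23 against Snap29 (log2 difference 1.02 ± 1.25) and Snap47 (1.37 ± 1.87), Stx3 against Stx4a (1.33 ± 1.28), Sytl2 against Sytl1 and Rab26 against Rab37 did not pass. For Stx3 against Stx4a the sign turned, to -0.37, when the union of exons replaced the canonical transcript, whereas on raw counts Stx3 was higher by 2.11 and passed (exact permutation test, adjusted p = 0.0426). Snap23 passed over Snap47 with the union of exons, at 2.79 (exact permutation test, adjusted p = 0.0426).

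Zinc depletion was then compared with standard diet. No member passed the threshold in edgeR's quasi-likelihood test with Benjamini-Hochberg adjustment over all genes, where 0% of the 9749 tested genes did. An unadjusted p under 0.05 was reached by 645 genes, DESeq2 called 10 genes and limma-voom 0, and none of these calls was a member. Of the 9 tested members 7 had a positive and 2 a negative log2 fold change with TMM, with a median of 0.41 beside 0.00 for all genes. With total counts only, 4 were positive and 5 negative, with a median of -0.37 beside -0.67. At an unadjusted p under 0.05, 3 members were higher with zinc depletion (Sytl2, Snap23 and Stx3), where 2.58% of all tested genes were. None of the members was lower at that p, where 4.03% of all tested genes were.

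Sytl2 had 15.0, 16.3 and 39.6 TMM-scaled CPM on standard chow and 70.9, 58.6 and 46.8 with zinc depletion, so that on this scale every zinc depleted library lay above every standard diet one. It was the only member of which this was true, where 3.51% of all tested genes were higher without overlap. Its log2 fold change was 1.32 (edgeR adjusted p 0.681, SE 0.46). On CPM its groups overlapped, as did those of all 10 members, where 10.9% of the tested genes did not overlap in 1 direction or the other. Leaving out 1 library moved the value between 1.07 and 1.96, and with total counts only it was 0.92. Zinc depleted replicate 1, in which Sytl2 reached 103 CPM, also held 4532 CPM of the goblet cell mucin Muc2, against 130 to 1445 CPM in the other libraries. Of the 5 goblet markers, 2 were highest in that library, the list summed to 986 to 2454 CPM on standard chow and 803 to 5629 CPM with zinc depletion, and none was at 0. On the TMM scale, where the groups of Sytl2 did not overlap, the goblet sums did not overlap either, at 1099 to 1629 against 1748 to 3862. On that scale 2 of the 5 goblet markers had a lower mean with zinc depletion. The part of goblet cell RNA in the level of Sytl2 was not tested. Without zinc depleted replicate 1 the log2 fold change was 1.17 (edgeR adjusted p 0.167).

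Snap23 had 7.04, 14.6 and 34.9 TMM-scaled CPM on standard chow and 30.5, 62.4 and 63.1 after zinc depletion. The log2 fold change was 1.46 (edgeR adjusted p 0.681, SE 0.57), with the groups overlapping through standard diet replicate 3. That library decided the size: without it the value was 2.31 (edgeR adjusted p 0.111). With total counts only it was 0.79. Lrrc57, which overlaps Snap23 on the other strand, had 17 to 50 counts per library and a log2 fold change of 0.58 (edgeR adjusted p 0.774, SE 0.58). Stx3 had 8.31, 9.55 and 19.0 TMM-scaled CPM on standard chow and 16.6, 29.7 and 26.5 after zinc depletion, which gave a log2 fold change of 0.98 (edgeR adjusted p 0.681, SE 0.44). It was 0.27 with total counts only and 1.48 without standard diet replicate 3 (edgeR adjusted p 0.190). Its overlapping neighbour Mrpl16 had 43 to 94 counts and a log2 fold change of 0.43 (edgeR adjusted p 0.797, SE 0.47).

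**Figure D3:**
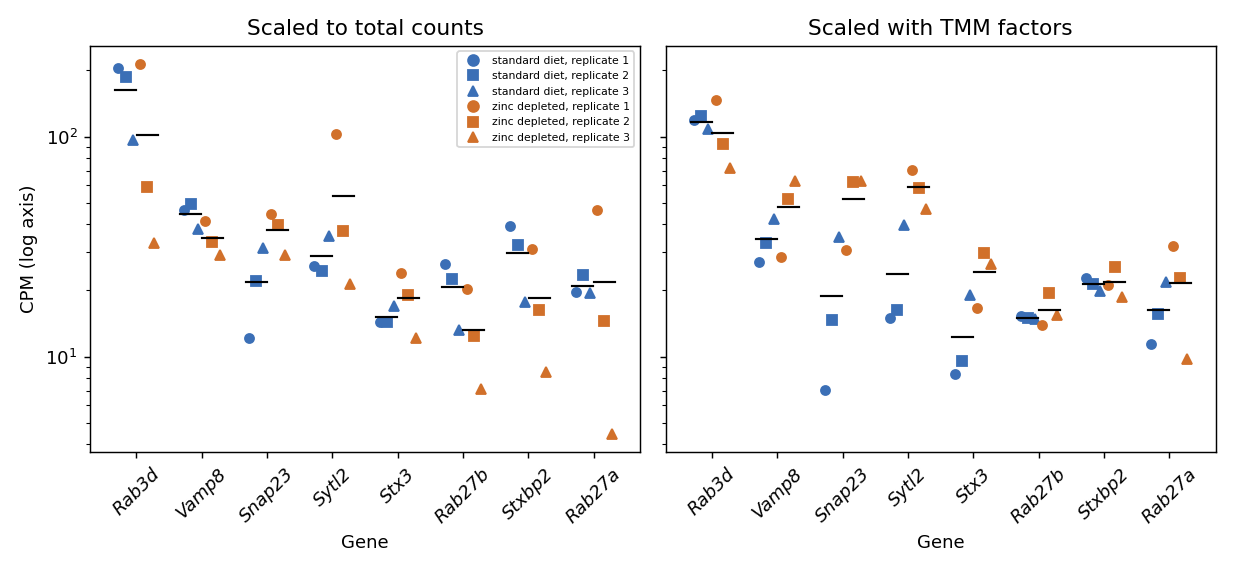
CPM on total counts (left) and TMM-scaled CPM (right) of 8 genes, both on log axes, with 1 point per library and a black line at each group's mean. Sytl2 separates the groups on the right (15.0 to 39.6 against 46.8 to 70.9), while on the left its groups overlap, and Rab27b lies between 13.9 and 19.4 on the right but between 7.12 and 26.3 on the left.

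For the other members the log2 fold changes were smaller than those of Sytl2, Snap23 and Stx3. Rab3d had a log2 fold change of -0.18 (SE 0.40), Stxbp2 of 0.03 (SE 0.35) and Rab27b of 0.11 (SE 0.34), with edgeR adjusted p between 0.901 and 0.983. On the TMM scale Rab27b spanned only 13.9 to 19.4 CPM and Stxbp2 only 18.6 to 25.5 CPM over the 6 libraries. Vamp8 had 0.48 (edgeR adjusted p 0.741, SE 0.41), Rab27a 0.41 (edgeR adjusted p 0.808, SE 0.47) and Sytl4 -0.28 (edgeR adjusted p 0.921, SE 0.79). With total counts only, Vamp8, Rab27b and Stxbp2 turned negative, to -0.37, -0.64 and -0.68. The value of Rab27a was 0.01 without zinc depleted replicate 1, and that of Rab3d turned from -0.18 to 0.07 without zinc depleted replicate 3 and became -0.50 without zinc depleted replicate 1. Sytl4 changed sign without standard diet replicate 3, to 0.56.

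**Figure D4:**
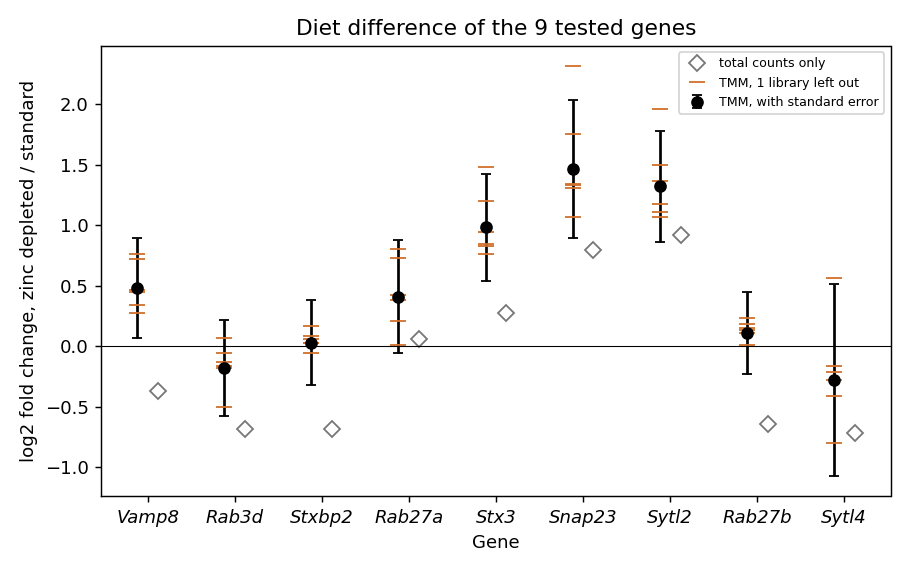
Log2 fold change (zinc depleted over standard diet) of the 9 tested genes: black points with standard error for TMM scaling, orange ticks with 1 library left out, open diamonds for total counts only. Snap23, Sytl2 and Stx3 stay above 0 in each of these, at 1.46, 1.32 and 0.98 with TMM, and the diamonds of the other genes other than Rab27a lie below 0.

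Shares within a family need no scaling between libraries, so they were compared between the diets as well. Of 8 families none passed, and 0.1 is the smallest p that an exact two-sided permutation test of 3 against 3 libraries can give. Rab3d took 95.8% ± 0.630 of its family on standard chow and 97.9% ± 1.00 with zinc depletion (SD, n = 3), without overlap (exact permutation test, p = 0.1, adjusted p 0.320). Snap23 took 37% ± 22.2 and 69.0% ± 9.54, Stx3 53.9% ± 17.2 and 76.1% ± 6.14, and Sytl2 40.9% ± 17.0 and 63.8% ± 5.90 (SD, n = 3), all higher with zinc depletion on average and all overlapping through standard diet replicate 3 (exact permutation test, p = 0.200 and adjusted p 0.320 for each). The share of Vamp8 was 67.3% ± 2.90 and 69.7% ± 4.05, that of Rab27a 71.2% ± 6.92 and 72.9% ± 12.3, and that of Stxbp2 72.8% ± 9.37 and 66.1% ± 3.13 (SD, n = 3). Rab26 against Rab37 rested on 1 to 13 counts per library and gave no usable share.

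Beyond the 10 members, 100 further genes of docking, priming and fusion were listed, 99 were in the table and 55 were tested. None passed the threshold in either direction; 27 had a positive and 28 a negative log2 fold change, with a median of -0.01 (14 and 41, and -0.64, with total counts only). All 9 genes listed for the exocyst, the complex that tethers vesicles to the plasma membrane, were counted in each library. They include the paralogs Exoc6 and Exoc6b, so 9 is not a number of subunits. With TMM, 2 were higher and 7 lower, with a median of -0.57, and none passed. Of the 33 genes of priming and calcium sensing, 13 had no count in any library and 6 were tested. The calcium sensor Syt7, known from lysosome-related and dense-core granules, was at 17.3, 24.9 and 15.2 CPM on standard chow and 51.9, 10.6 and 4.23 CPM with zinc depletion (log2 fold change 0.51, edgeR adjusted p 0.772, SE 0.50). The priming factor Unc13b was at 10.6, 10.6 and 8.62 CPM and 25.3, 9.02 and 1.49 CPM (0.62, edgeR adjusted p 0.743, SE 0.54). Both genes, named after their values were seen, were highest on CPM in zinc depleted replicate 1 and lowest in zinc depleted replicate 3. The same held on CPM for Rab3d, Rab27a, Stx3 and Sytl2. Zinc depleted replicate 3 also had the lowest TMM factor, 0.46.

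The smallest unadjusted p-values among these other genes belonged to Stxbp6, Myo5c and Stx11 on the higher side and Rab3a, Rab3ip and Stx4a on the lower side. Stxbp6, which encodes amisyn, a SNARE-binding protein, had 6.09, 5.86 and 5.26 TMM-scaled CPM on standard chow and 10.1, 10.5 and 13.8 with zinc depletion (log2 fold change 1.00, edgeR adjusted p 0.681, SE 0.37). Myo5c, an unconventional myosin of exocrine cells, had 8.07, 8.14 and 8.95 and 16, 19.6 and 10.2 (0.87, edgeR adjusted p 0.681, SE 0.38). For both genes the groups did not overlap on this scale, where 3.51% of all tested genes were higher without overlap. Both had been picked by their small p, which favours groups without overlap. With total counts only the values were 0.21 and 0.25, and the groups overlapped on CPM. Rab3a had 3.54, 3.26 and 1.30 CPM on standard chow and 1.00, 0.673 and 0.235 CPM with zinc depletion, lower without overlap on both scales (log2 fold change -1.35, edgeR adjusted p 0.681, SE 0.64). On CPM 10.9% of all tested genes did not overlap in 1 direction or the other. The share lower without overlap on the TMM scale is not given here. Of the 13 enteroendocrine markers, 12 had a lower mean CPM with zinc depletion, where 86.9% of all tested genes did. On the TMM scale 12 had a lower mean. By another measure, the edgeR log2 fold change, 4873 of 9749 tested genes were negative. The markers were counted by group means whether or not they passed the filter, so these numbers are not directly comparable. Lower TMM means were also found for 5 of 5 stem, 6 of 7 enterocyte, 5 of 6 tuft, 4 of 5 proliferation and 4 of 6 immune markers. For goblet, mast cell and Paneth markers the numbers were 2 of 5, 1 of 6 and 0 of 7. The enteroendocrine sums were 34.7 to 87.6 on standard chow and 20 to 54.7 after zinc depletion on the TMM scale, overlapping. No enteroendocrine marker was at 0 in all libraries. The part of these markers in the level of Rab3a was not tested. Stx11 rested on 0 to 44 counts per library (1.98, SE 1.01), Rab3ip, an exchange factor for Rab8, had -0.58 (SE 0.35), lower without overlap on the TMM scale, and Stx4a had -0.81 (SE 0.50), with edgeR adjusted p between 0.681 and 0.686.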

How the data were processed

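The authors deposited raw read counts per Ensembl gene, with 1 column per library; the submitters' processing notes name FastQC, Trimmomatic 0.39, STAR 2.7.10a, DESeq2 and the build mm39. The counting program, whether it used strand and how it treated reads with several matches were not given in the sources used here. Of 55414 identifiers, 54749 were found in GENCODE M39 on GRCm39, which gave symbols, positions and canonical transcript lengths.

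Diets were compared with edgeR 4.0.16 (quasi-likelihood F test, TMM, filterByExpr, group as the only term, threshold 0.05) in R 4.3.3, and standard errors are the absolute log2 fold change over the square root of F. The procedure was tested on simulated data. With a simulated 4-fold change it recovered 91 of 192 changed genes and called 10 unchanged ones. With an 8-fold change it recovered 163 of 188 and called 3 unchanged ones. Smaller changes, such as those of the members, were not simulated, so the absence of calls does not show that the members were unchanged. Alternatives were DESeq2 1.42.0, limma-voom (limma 3.58.1), RLE factors, total counts only, TMM without alpha-defensins, other filters, a replicate block and leaving out each library. CPM per kilobase is CPM divided by canonical transcript length. Paralog pairs were compared on log2 of (count + 0.5) per length with exact sign-flip tests (scipy 1.17.1). Libraries of a group differed beyond sampling noise (chi-square per degree of freedom 15.3 to 168), so each counted as 1 sample. Limits for a count of 0 are 3 counts, or 0.235 to 0.489 CPM, and cover counting error only.

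The 10 members, the family, pathway and marker lists and the tests were chosen with earlier results of these data known. The genes named were all members, in each family the most abundant other paralog, the paralogs of the listed pairs, and the 3 other listed genes with the smallest unadjusted p in each direction; Rab3c, Syt7 and Unc13b fall outside this rule and were chosen after their values were seen. Some paralogs of these families are not reported here.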

Additional observations from a re-analysis of the deposited data

How the results depend on the processing

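No member and no gene of the exocytosis lists passed the threshold under any alternative run, including those that called other genes: 10 genes with DESeq2, 76 without the low-count filter and, with 1 library left out, 0 to 28, the 28 without standard diet replicate 3. The median log2 fold change of the members was -0.37 with total counts only and 0.21 to 0.72 with 1 library left out, and 4 members were positive with total counts only. Directions turned for Rab27b (-0.64), Vamp8 (-0.37) and Stxbp2 (-0.68) with total counts only, and for Sytl4 with limma-voom (0.38). With 1 library left out the log2 fold change ranged from -0.80 to 0.56 for Sytl4, from -0.06 to 0.17 for Stxbp2 and from -0.50 to 0.07 for Rab3d. The replicate block turned Sytl4 to 0.08 and moved the number of genes at an unadjusted p under 0.05 from 645 to 962, with 0 calls. Deviations of libraries with the same number correlated at 0.15, -0.06 and 0.25, so the numbers were not taken as pairs. Leaving out 1 library moved the number of genes at that p further. It was 143 without standard diet replicate 1 and 2418 without zinc depleted replicate 1, where the smallest edgeR adjusted p was 0.117. Of the paralog pairs, Stx3 against Stx4a turned to -0.37 with the union of exons and Rab26 against Rab37 to -0.18 without division by length and to -0.03 without zinc depleted replicate 3. Without division by length 2 pairs gained the call (Stx3 over Stx4a at 2.11, Sytl2 over Sytl1 at 2.38) and Rab27a over Rab27b lost it (0.16). With the union of exons Snap23 over Snap47 gained it (2.79), and Stxbp2 over Stxbp3 was 2.73. With 5 libraries the pair test cannot pass after adjustment, and 0 pairs did. The share of Rab27a, 1.63 percentage points higher with zinc depletion, ranged from -4.28 (without zinc depleted replicate 1) to 8.02 (without zinc depleted replicate 3) and was -1.89 without standard diet replicate 1. Depth limits Rab26, Sytl4, Rab37 and Stx11.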
